A study of Homo sapiens with 6 samples.

Results

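The interferon system of a human cervical carcinoma cell line was examined through 49 genes, taken from the deposited table of 60664 genes by matching Ensembl identifiers to a list of gene symbols. The list was chosen by function, with earlier results of these data known. It holds 5 sensors of foreign or misplaced nucleic acid, 6 receptor chains and kinases, 5 transcription factors, 4 genes of ISG15 conjugation, 11 effectors that act on RNA, 10 effectors that act on virus entry, budding or replication, and 8 other induced genes. All 49 were found, and 48 were abundant enough to be tested among 15130 genes. RIGI was the exception.

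The RNA came from SiHa PR cells, the parental line from which a highly lymph node metastatic subline had been selected, and SiHa is an established line from a cervical squamous cell carcinoma. The samples fell into 3 libraries of control SiHa PR cells and 3 of SiHa PR cells that overexpressed P4HA3, a collagen prolyl 4-hydroxylase subunit, and the study's methods describe a lentiviral pCDH vector for the overexpression. The sample titles give the controls only as SiHa PR. Neither these titles nor the paper's account of this RNA-seq says whether the controls carried an empty vector. An effect of the vector or of transduction was not tested. No drug, time point or added interferon is named for either group. Whether the overexpressing cells are a clone or a pool is not stated, nor whether the libraries of a group came from separate cultures, so p-values measure only the spread between these samples, which may be technical.

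Cells detect viral RNA with the helicases RIG-I, MDA5 and LGP2, and cytosolic DNA with cGAS, whose product activates STING. These sensors switch on the factors IRF3 and IRF7, which drive the genes for type I and type III interferons. Secreted interferons bind their receptors, the kinases JAK1 and TYK2 activate a complex that contains STAT2 and IRF9, and this complex binds the interferon-stimulated response element in the promoters of the effector genes. Epithelial cells, including those of the cervix, respond to both types.

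The response element can be seen in the promoters themselves. RefSeq promoter sequences (GRCh38.p14, 250 bases before to 50 bases after the start site) were matched to 37 of the 49 genes by symbol, and the letters GAAANNGAAA, which hold the core of the element, were searched on both strands with overlapping matches allowed. At least 1 match stood in 22 of the 37 genes (59.5%), against 1195 of all 27305 genes with a promoter sequence (4.38%). A match is a description of the letters and not a shown binding site. The following 6 stretches, written 5′ to 3′ on the strand of the gene and ending at or before the start site or the last match, carry the match in capitals, which reads TTTCNNTTTC where it lies on the opposite strand. The first 4 belong to genes called lower with P4HA3 overexpression with and without a correction for base composition. EIF2AK2, which was called in neither fit, and IFIT1, which was called lower with the correction alone, carry the same letters and are shown beside them.

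IFITM1 (chr11:313955-314043, + strand): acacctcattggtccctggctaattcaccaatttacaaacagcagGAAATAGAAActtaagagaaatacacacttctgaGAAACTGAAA

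ISG15 (chr1:1013339-1013444, + strand): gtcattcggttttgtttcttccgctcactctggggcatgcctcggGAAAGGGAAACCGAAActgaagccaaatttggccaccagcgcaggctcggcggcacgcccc

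IFI6 (chr1:27672231-27672393, - strand): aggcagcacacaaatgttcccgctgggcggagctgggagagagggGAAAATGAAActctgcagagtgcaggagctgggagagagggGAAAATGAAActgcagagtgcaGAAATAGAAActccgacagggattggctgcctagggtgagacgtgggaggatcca

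ISG20 (chr15:88638902-88639001, + strand): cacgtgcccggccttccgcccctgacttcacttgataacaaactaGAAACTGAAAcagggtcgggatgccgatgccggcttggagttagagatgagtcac

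IFIT1 (chr10:89392462-89392574, + strand): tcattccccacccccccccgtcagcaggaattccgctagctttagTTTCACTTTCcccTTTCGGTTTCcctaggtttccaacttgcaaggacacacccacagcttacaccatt

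EIF2AK2 (chr2:37156977-37157031, - strand): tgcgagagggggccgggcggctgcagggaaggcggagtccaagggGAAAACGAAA

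Total counts per library ran from 21773488 to 24939948, and libraries within a group differed beyond sampling noise (chi-square per degree of freedom 5.17 to 17.8). Squamous epithelial markers summed to 190465 to 215909 counts per library in control and 147770 to 178804 with overexpression, most of them from KRT17, KRT8 and KRT18, whereas KRT5 had 3 or 4 counts. CDH1 (log2 fold change -0.77), KRT18 (-0.40), KRT17 (-0.32) and CDKN2A (-0.27) of this list were called lower with overexpression by the edgeR test described below, CDH1 and KRT18 also with the correction for base composition. The deposited growth protocol describes uterine smooth muscle, but its defining markers DES, MYH11, CNN1 and LMOD1 had at most 9 counts each in any library. ACTG2, of the same list, had 0, 1 and 30 counts in control and 40, 1 and 44 counts with overexpression (log2 fold change 1.42, adjusted p = 0.305, called higher without control replicate 3, without overexpression replicate 2 and with a replicate block), and the smooth muscle sum of 1953 to 2599 counts came almost entirely from SMTN. Of the immune markers, PTPRC, CD3E, CD68 and LYZ had 0 to 2 counts, and the list's sum of 2234 to 2409 counts in control and 789 to 1252 with overexpression came almost entirely from CD14 (log2 fold change -1.15, called lower). The endothelial sum was 64 to 74 counts in control and 30 to 40 with overexpression, nearly all from PECAM1 (-1.03, called lower), with VWF, CDH5 and CLDN5 at 0 to 2 counts, and the fibroblast sum was 2565 to 3288 in all libraries. The part of these markers in the results was not tested. P4HA3 itself stood at 3.53, 2.91 and 3.80 CPM (counts scaled to TMM-normalized library sizes) in control replicates 1, 2 and 3, and at 1934, 1991 and 1936 CPM with overexpression, which gave a log2 fold change of 9.15 (SE 0.101).

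P4HA3 overexpression was accompanied by lower RNA of a subset of the interferon genes. Without a correction for base composition, IFITM1, OAS1, ISG15, OASL and IFI6 led the genes called. With the correction IFITM1, OAS1 and OASL still led, whereas ISG15 (-0.27) stood behind ISG20 (-0.39), MX1 (-0.39) and IFI6 (-0.37). By edgeR's quasi-likelihood test at a threshold of 0.05 on the Benjamini-Hochberg adjusted p over all 15130 genes, 14 of the 48 tested genes fell (29.2%), 1 rose and 33 were not called. Over all genes tested, 11.4% were called lower, 9.36% were called higher and 20.8% were called in either direction. The genes that fell were STING1, IRF1, IRF3, IRF7, ISG15, OAS1, OAS3, OASL, ISG20, IFITM1, IFITM2, IFITM3, BST2 and IFI6, and the gene that rose was JAK1. The median log2 fold change of the 48 genes was -0.17, beside 0.0055 for all genes tested, and 35 of them had a negative value. The control and overexpression libraries did not overlap in 21 genes on the lower side and 3 on the higher side, where all genes gave 20.4% and 19.7%. Interferon genes as a whole took between 0.634% and 0.647% of the counts in control libraries and between 0.505% and 0.548% with overexpression.

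**Figure D1:**
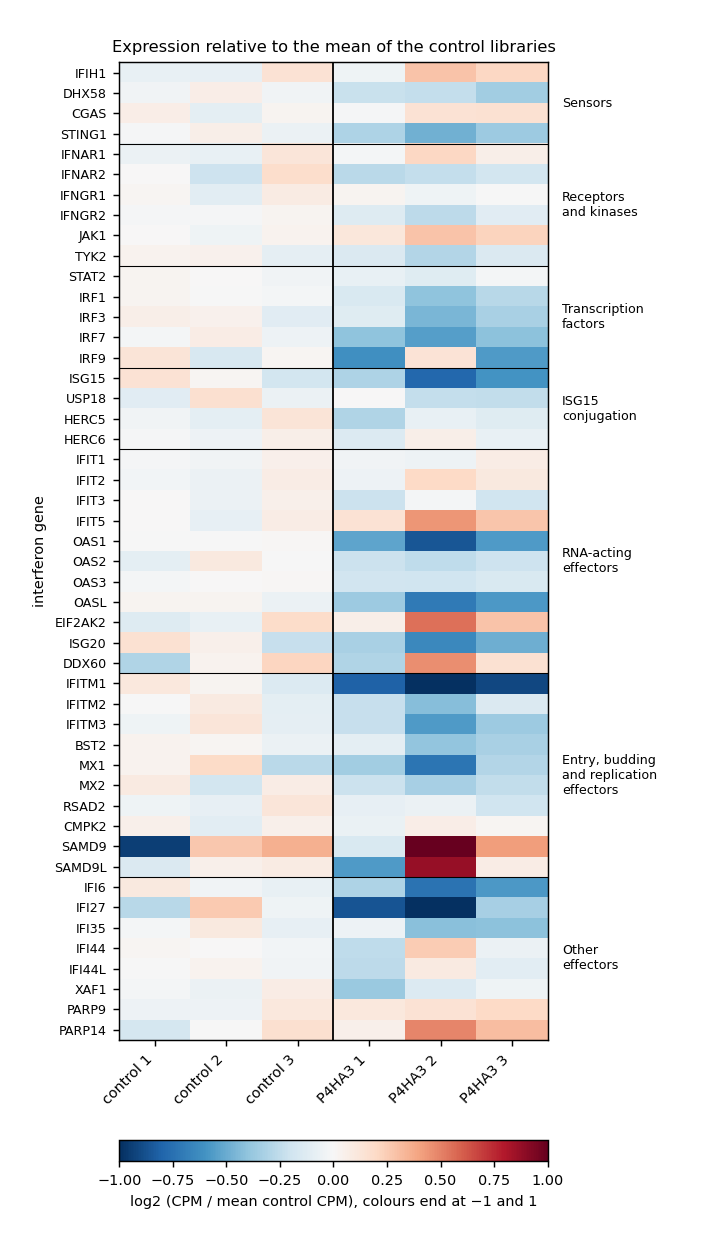
Colours show the log2 ratio of each library's CPM to the mean CPM of the control libraries for the 48 tested interferon genes (lines, ordered by role) in the 3 control and 3 overexpression libraries (columns), with colours ending at -1 and 1. OAS1, IFITM1, STING1, IRF7 and OASL are blue in all 3 overexpression libraries, whereas SAMD9 is dark red in overexpression replicate 2 alone.

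The fold changes followed the base composition of the transcripts. Across the 48 genes the log2 fold change ran against the GC content of the canonical transcript with a Spearman rho of -0.81 and a Pearson r of -0.72, and across 15107 genes of the whole table with a rho of -0.58. These are descriptions across genes of the same 6 libraries, and genes are not independent replicates. The 14 genes that fell had GC contents of 50.7% to 66.6% (median 56.5%), and the 33 genes not called had a median of 43.8%. Within groups, too, libraries differed along GC content, with rank correlations between GC content and a library's deviation from its group mean of -0.52 to 0.45. A second fit therefore removed each library's smooth trend on GC content and transcript length before the same test. It takes away any part of a group difference that runs along these measures, whatever its source, and whether the trend is technical was not tested.

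With the trend removed, 17 of the 48 interferon genes were called lower and JAK1 was again called higher, while over all genes 9.35% were called lower and 9.26% higher. The median log2 fold change of the 48 genes was -0.15, beside 0.0046 for all genes tested. Of the 14 genes lower in the first fit, 10 stayed lower and IRF3, IRF7, IFITM2 and BST2 lost the call. The 7 genes called lower in the second fit alone were IFNGR1, HERC5, IFIT1, IFIT3, OAS2, MX1 and RSAD2, and none changed from one called direction to the other. The rank correlation with GC content over the 48 genes was -0.26 after the correction. Where the call of an interferon gene differs between the fits, both values are given below.

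**Figure D2:**
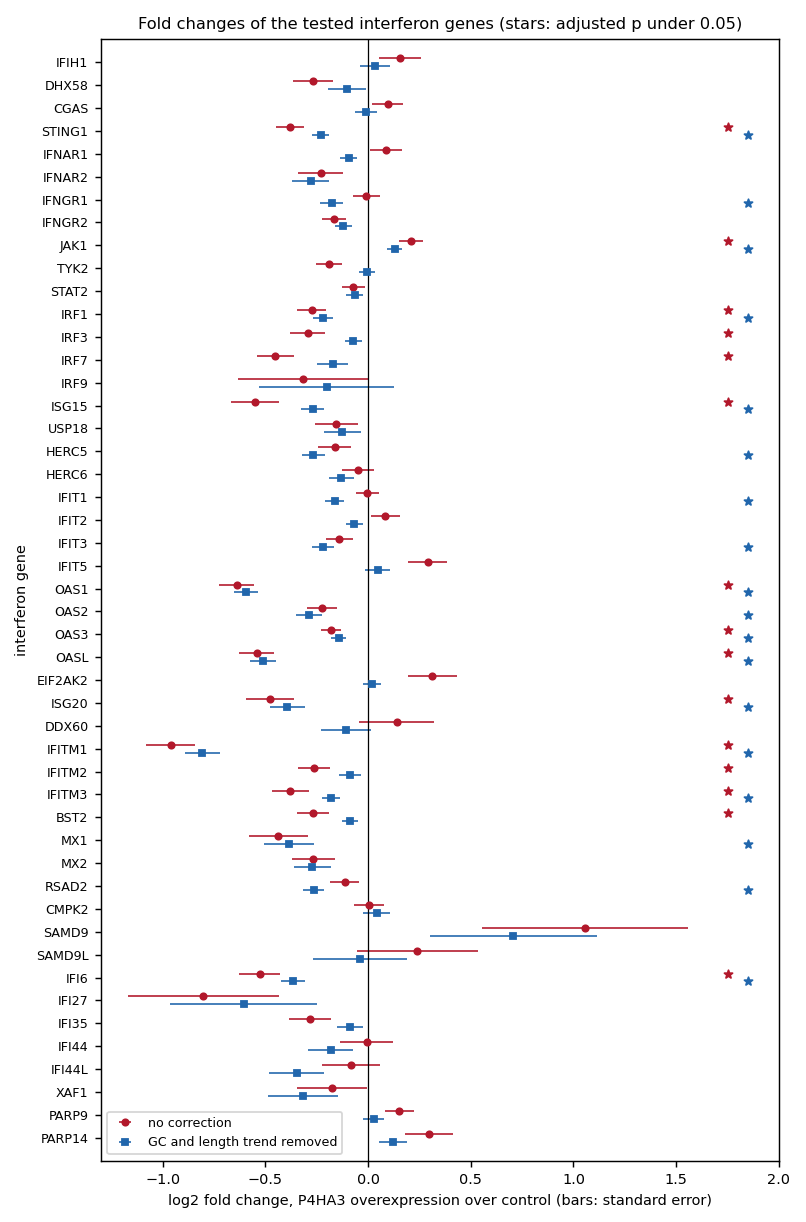
Points give the log2 fold change of P4HA3 overexpression over control for each tested interferon gene, ordered by role, with bars for the standard error, without correction (red circles) and with the GC and length trend removed (blue squares), and stars mark an adjusted p under 0.05. IFITM1, OAS1 and OASL lie well below 0 in both fits, whereas IRF3, IRF7, IFITM2 and BST2 move towards 0 with the correction.

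Leaving out single libraries moved the number of calls more than any choice of normalization. The number of interferon genes called lower was 6, 4 and 15 without control replicates 1, 2 and 3, in that order, and 19, 11 and 6 without overexpression replicates 1, 2 and 3. In the same order, 781, 534, 3185, 5530, 2206 and 904 of all genes were called, both directions together. STING1, OAS1, OASL and IFITM1 were called lower in each of these 6 fits. Of the 33 genes not called with all libraries, IFIH1, IFNGR2, TYK2, IFIT5, OAS2, EIF2AK2, MX1, SAMD9, IFI35 and PARP14 passed the threshold without overexpression replicate 1, EIF2AK2, MX1 and TYK2 also without control replicate 3, and IFIT3 without overexpression replicate 2. The adjusted p values are given with each gene.

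The levels of the genes differed widely. Per kilobase of canonical transcript, IFITM3 was the most abundant interferon gene in control cells at 1417 CPM per kb, above 99.8% of the genes tested. ISG15 followed with 1228 CPM per kb, then OASL with 484 and BST2 with 468, each above more than 99% of the genes tested. IFITM2 reached 146, IFIT3 101, IFI6 93.1, IRF3 92.4 and IFIT1 76.0 CPM per kb. At the other end, IFI44L (0.502), SAMD9 (0.499), XAF1 (0.487) and SAMD9L (0.330) were barely detected, and IFI27 stood at 0.754 CPM per kb. RIGI (0.0528) and IRF9 (0.323 CPM per kb) share most of their transcript with another annotated gene, so that their values are not read as levels. XAF1 and IFNAR2 are limited as levels too. PRAL, on the opposite strand, covers 2535 of the 3417 canonical bases of XAF1, and the strand setting is not stated. IFNAR2-IL10RB, on the same strand, covers 2001 of the 4074 canonical bases of IFNAR2. Overexpression left this order of magnitude in place, with 1089 CPM per kb for IFITM3 and 838 for ISG15.

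**Figure D3:**
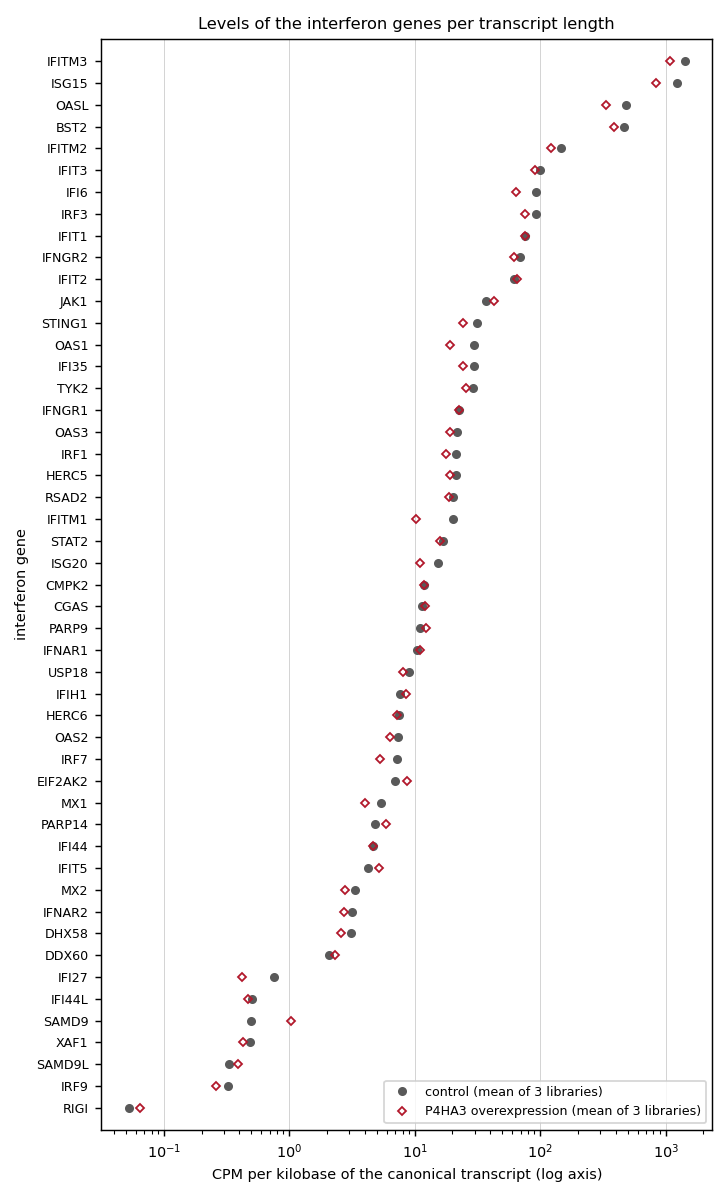
Mean CPM per kilobase of canonical transcript, on a log axis, is shown for the 49 interferon genes in control (filled circles) and P4HA3 overexpression (open diamonds), each the mean of 3 libraries. Levels span from 0.0528 CPM per kb for RIGI to 1417 CPM per kb for IFITM3 in control, and the open diamonds of IFITM3, ISG15, OASL and BST2 lie to the left of the circles, whereas those of IFIT2 (61.8 in control and 65.6 CPM per kb with overexpression) and JAK1 (37.3 and 43.2) lie to the right.

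Sensors of nucleic acid were present on both the RNA and the DNA side. STING1 (ENSG00000184584, chr5:139475533-139482935), the adaptor that relays the cGAS signal, stood at 67.9, 71.2 and 65.7 CPM in control replicates 1 to 3 and at 55.3, 48.96 and 53.1 CPM with overexpression. All 3 overexpression libraries lay below all 3 control libraries. STING1 fell by 0.38 on the log2 scale (SE 0.0663, adjusted p = 0.00583), and by 0.23 with the trend removed (adjusted p = 0.00306). CGAS, the enzyme upstream of it, was measured at 38.1, 33.8 and 37.0 CPM in control and 36.0, 40.1 and 40.4 CPM with overexpression. These libraries overlapped, and the log2 fold change of 0.096 (SE 0.0760) was not called and became -0.010 with the trend removed. The ratio of STING1 to CGAS within a library was 1.78, 2.11 and 1.78 in control and 1.54, 1.22 and 1.31 with overexpression (exact permutation test, two-sided p = 0.1, the smallest that 3 against 3 libraries allow), a pair chosen after the values were seen. Ratios here and below were not corrected for base composition, and the GC content was 57.0% for STING1 and 43.8% for CGAS.

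IFIH1, which encodes the RNA helicase MDA5, stood at 26.1, 25.9 and 30.4 CPM in control and 26.7, 33.4 and 31.7 CPM with overexpression. The groups overlapped, with a log2 fold change of 0.16 (SE 0.100) that was called only without overexpression replicate 1 (adjusted p = 0.0469). DHX58, which encodes the helicase LGP2, had a log2 fold change of -0.27 (adjusted p = 0.074) without overlap between the groups. RIGI, which encodes RIG-I, had 7, 6 and 4 counts in control and 5, 10 and 6 counts with overexpression, and was not tested. In the annotation used here a second gene on the same strand, ENSG00000288684, covers 4471 of the 4628 bases of the canonical RIGI transcript, and it has 0 counts in every library. How reads that match both genes were counted is not stated, and the RIGI count is not read as a level here.

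Of the 6 receptor chains and kinases, JAK1 alone was called in the first fit. IFNAR1, a chain of the type I interferon receptor, was at 61.0, 60.4 and 69.1 CPM in control and 62.7, 73.4 and 66.1 CPM with overexpression. The groups overlapped, and its log2 fold change of 0.086 (SE 0.0780) became -0.095 with the trend removed, not called in either fit. JAK1 (ENSG00000162434, chr1:64833223-65067754), the kinase shared by the type I, II and III receptors, was at 191, 185 and 195 CPM in control and 205, 232 and 222 CPM with overexpression. It was higher in all 3 overexpression libraries and rose by 0.21 on the log2 scale (SE 0.0596, adjusted p = 0.034), or 0.13 with the trend removed (adjusted p = 0.0322). Uncorrected, the JAK1 call was lost without control replicates 1 and 2 (adjusted p = 0.124 and 0.134) and without overexpression replicates 2 and 3 (adjusted p = 0.0962 and 0.121). With the trend removed and single libraries left out, the JAK1 call held only without overexpression replicate 1. TYK2, the partner kinase of the type I receptor, had a log2 fold change of -0.19 (adjusted p = 0.0575) and -0.0062 with the trend removed. Uncorrected, TYK2 was called lower without control replicate 3 (adjusted p = 0.0396) or overexpression replicate 1 (adjusted p = 0.028). IFNGR2 (-0.16) and IFNAR2 (-0.23) were not called in either fit, though IFNGR2 was without overexpression replicate 1 (-0.18, adjusted p = 0.0393), and IFNGR1 (-0.0081) was called lower with the trend removed (-0.18, adjusted p = 0.0494).

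Of the 5 transcription factors, IRF1, IRF3 and IRF7 were called lower in the first fit and IRF1 alone with the trend removed. STAT2, the transactivating subunit of the type I complex, was at 75.7, 74.6 and 72.7 CPM in control and 70.7, 68.3 and 73.2 CPM with overexpression. The groups overlapped and the log2 fold change of -0.071 (SE 0.0564) was not called, with a range of -0.095 to -0.048 when single libraries were left out. IRF1 (ENSG00000125347, chr5:132440440-132508719), an interferon-induced activator, was at 77.9, 76.0 and 75.3 CPM in control and 68.7, 57.8 and 62.9 CPM with overexpression. IRF1 fell by 0.28 on the log2 scale (SE 0.0698, adjusted p = 0.0231) and by 0.22 with the trend removed (adjusted p = 0.0114). Its call was lost without control replicate 1 (adjusted p = 0.101), control replicate 2 (0.0961) or overexpression replicate 3 (0.0856).

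IRF3, the constitutive factor that the sensors activate, was at 154, 152 and 136 CPM in control and 135, 107 and 118 CPM with overexpression. The highest overexpression library lay just below the lowest control library, and the log2 fold change of -0.29 (SE 0.0847, adjusted p = 0.0355) shrank to -0.071 (adjusted p = 0.235) with the trend removed. IRF7, the inducible factor that amplifies type I interferon, was at 13.7, 14.6 and 13.4 CPM in control and 10.5, 9.52 and 10.5 CPM with overexpression. Its log2 fold change of -0.45 (SE 0.0901, adjusted p = 0.00983) was -0.17 (adjusted p = 0.139) with the trend removed, and without control replicate 2 the uncorrected adjusted p was 0.0623. The IRF3 call was also lost without control replicates 1 and 2 (adjusted p = 0.136 and 0.15) and without overexpression replicates 2 and 3 (adjusted p = 0.0583 and 0.115). IRF7 and IRF3 had GC contents of 66.6% and 61.3%, both above 60%.

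IRF9, the DNA-binding subunit of the STAT2 complex, had 14, 10 and 13 counts in control and 8, 13 and 9 counts with overexpression. The groups overlapped and the log2 fold change of -0.32 (SE 0.315) was not called. ENSG00000259529, a gene on the same strand, covers 1513 of the 1626 bases of the canonical IRF9 transcript, and, as with RIGI, the IRF9 count is not read as a level.

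ISG15, a ubiquitin-like protein that is conjugated to target proteins and is among the most strongly induced products of the response, was one of the most abundant interferon genes. ISG15 (ENSG00000187608, chr1:1001138-1014540) was at 866, 792 and 688 CPM in control and 631, 453 and 516 CPM with overexpression. Its highest overexpression library lay below its lowest control library. ISG15 fell by 0.55 on the log2 scale (SE 0.118, adjusted p = 0.0126), and by 0.27 (adjusted p = 0.00809) with the trend removed. As a level it decreased by 31.8%, or decreased by 17.1% with the trend removed. Its adjusted p was 0.0595, 0.0773 and 0.0592 when control replicate 1, control replicate 2 and overexpression replicate 3 were left out in turn. Of the conjugation partners, HERC5, the ligase for ISG15, had a log2 fold change of -0.16 (adjusted p = 0.159) and was called lower with the trend removed (-0.27, adjusted p = 0.00783), whereas USP18 (-0.15), which removes ISG15 and restrains the receptor, and HERC6 (-0.049) were not called in either fit.

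**Figure D4:**
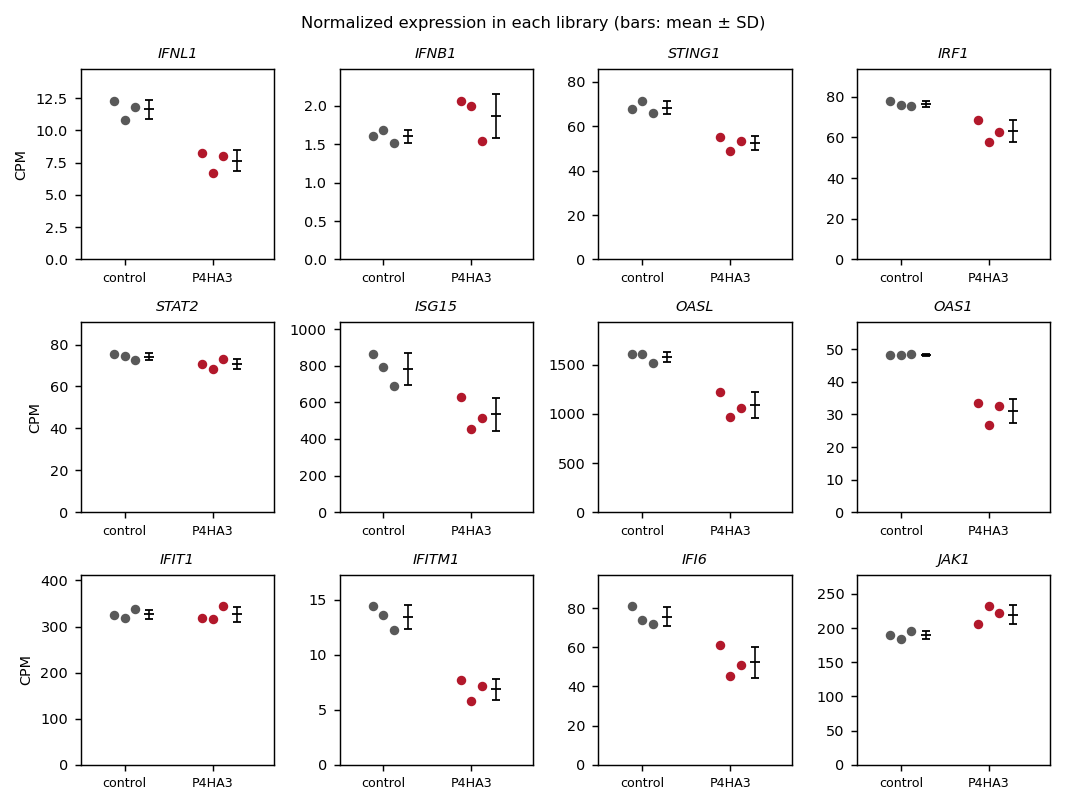
TMM-normalized CPM of 10 interferon genes and of the ligand genes IFNL1 and IFNB1 is shown for each library (points) with the mean and SD of the 3 libraries of a group (bars), on axes that start at 0. The groups do not overlap for IFNL1, STING1, IRF1, ISG15, OASL, OAS1, IFITM1, IFI6 and JAK1, and they overlap for IFNB1, STAT2 and IFIT1.

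Of the 11 effectors that act on RNA, 4 were called lower in the first fit and 7 with the trend removed. In the 2′-5′-oligoadenylate synthetase family, whose active members make an antiviral second messenger, 3 of the 4 genes fell in the first fit and all 4 with the trend removed. OAS1 (ENSG00000089127, chr12:112905856-112933219) was at 48.2, 48.1 and 48.7 CPM in control and 33.5, 26.8 and 32.6 CPM with overexpression. The control libraries lay within 1 CPM of each other and far above the overexpression libraries. OAS1 fell by 0.64 on the log2 scale (SE 0.0860, adjusted p = 0.00181), and by 0.59 with the trend removed. An antisense gene that covers 92 of its 1631 canonical bases, ENSG00000257452, had at most 0.575 CPM in any library. OASL (ENSG00000135114, chr12:121017763-121039246), a family member without synthetase activity that enhances RIG-I signalling, was at 1611, 1613 and 1522 CPM in control and 1227, 967 and 1065 CPM with overexpression. It fell by 0.54 (SE 0.0856, adjusted p = 0.00361), and by 0.51 with the trend removed, and both genes were called with any single library left out.

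OAS3, the largest synthetase, was at 141, 143 and 144 CPM in control and 125, 124 and 128 CPM with overexpression. Its fall of 0.18 on the log2 scale (SE 0.0502, adjusted p = 0.0313) was small but without overlap, and 0.14 remained with the trend removed. The OAS3 call was lost in 5 of the 6 fits that left out a library, with adjusted p values between 0.0602 (without control replicate 3) and 0.112 (without control replicate 1), 0.105 without control replicate 2, and 0.077 and 0.0918 without overexpression replicates 2 and 3. It was lost as well without a filter on low counts (adjusted p = 0.073). OAS2 had a log2 fold change of -0.22 (adjusted p = 0.0535) and was called lower with the trend removed (-0.29, adjusted p = 0.0107) and, uncorrected, without overexpression replicate 1 (adjusted p = 0.0484). OAS1, OAS3 and OAS2 are neighbours on chromosome 12, and within a library the ratio of OAS1 to OAS3 was 0.343, 0.335 and 0.338 in control and 0.268, 0.215 and 0.254 with overexpression (exact permutation test, two-sided p = 0.1). This pair was chosen after the values were seen, so the test cannot decide whether the genes changed unequally. The ratio only describes these libraries.

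In the IFIT family, whose proteins bind RNA lacking the cap marks of the host, no gene was called in the first fit, and IFIT1 and IFIT3 were called lower with the trend removed. Whether the families differ from each other was not tested. IFIT1 was at 324, 319 and 338 CPM in control and 319, 316 and 344 CPM with overexpression. These values interleaved, and the log2 fold change of -0.0036 (SE 0.0570) was not called, nor did its sign hold across settings. With the trend removed IFIT1 was called lower (-0.16, adjusted p = 0.0369). IFIT3 was at 241, 230 and 249 CPM in control and 207, 238 and 209 CPM with overexpression. Its groups overlapped through overexpression replicate 2, the log2 fold change was -0.14 (SE 0.0660, adjusted p = 0.142), and it was called lower with the trend removed (-0.22, adjusted p = 0.0145) and, uncorrected, without overexpression replicate 2 (-0.21, adjusted p = 0.0419). IFIT2 (0.084) and IFIT5 (0.29, adjusted p = 0.0536) had positive values and were not called in either fit, though IFIT5 was called higher without overexpression replicate 1 (0.36, adjusted p = 0.0116). The ratio of ISG15 to IFIT1 within a library was 2.67, 2.48 and 2.04 in control and 1.98, 1.43 and 1.5 with overexpression (exact permutation test, two-sided p = 0.1), also chosen after the values were seen. The GC content was 64.2% for ISG15 and 41.8% for IFIT1. With the trend removed, ISG15 fell by 0.27 and IFIT1 by 0.16 on the log2 scale.

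ISG20, an exonuclease that degrades viral RNA, was at 27.0, 25.3 and 20.7 CPM in control and 19.5, 15.6 and 17.3 CPM with overexpression. The groups did not overlap, although control replicate 3 lay close to the highest overexpression library. ISG20 fell by 0.48 on the log2 scale (SE 0.117, adjusted p = 0.0201) and by 0.39 with the trend removed (adjusted p = 0.00874), and its uncorrected adjusted p was 0.0935, 0.107 and 0.0775 with control replicate 1, control replicate 2 and overexpression replicate 3 left out in turn. EIF2AK2, which encodes the RNA-activated kinase PKR, had a log2 fold change of 0.31 (adjusted p = 0.0844) that shrank to 0.020 with the trend removed. Uncorrected, EIF2AK2 was called higher without control replicate 3 (0.42, adjusted p = 0.0456) or overexpression replicate 1 (0.42, adjusted p = 0.0059). It was called higher with a replicate block too (0.30, adjusted p = 0.00957). The helicase gene DDX60 was not called in either fit (0.14 and -0.11).

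Of the genes against virus entry and budding, IFITM1, IFITM2, IFITM3 and BST2 all fell in the first fit. IFITM1 (ENSG00000185885, chr11:310041-315272), which restricts the fusion of viruses at the cell membrane, was at 14.4, 13.7 and 12.2 CPM in control and 7.69, 5.83 and 7.14 CPM with overexpression. Of the genes that passed the test it decreased most, and fell by 0.96 on the log2 scale (SE 0.120, adjusted p = 0.00135) and by 0.81 with the trend removed. As a level it decreased by 48.7%. It fell in each of the 6 fits that left out a library, by 0.86 to 1.04. A gene on the same strand, ENSG00000288681, covers 351 of the 668 bases of its canonical transcript, which limits IFITM1 as a level.

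IFITM3 and IFITM2, relatives that act in endosomes, lie beside IFITM1 on chromosome 11. IFITM3 was at 841, 944 and 812 CPM in control and 738, 585 and 673 CPM with overexpression. No overexpression library reached the control libraries, and IFITM3 fell by 0.38 on the log2 scale (SE 0.0900, adjusted p = 0.0181) and by 0.18 with the trend removed (adjusted p = 0.0201). Its uncorrected adjusted p was 0.0595, 0.103 and 0.0658 with the same libraries left out, namely control replicate 1, control replicate 2 and overexpression replicate 3. IFITM2 was at 147, 157 and 138 CPM in control and 126, 110 and 133 CPM with overexpression. Its log2 fold change of -0.26 (SE 0.0784, adjusted p = 0.0403) was -0.087 (adjusted p = 0.291) with the trend removed. The IFITM2 call was lost without control replicates 1 and 2 (adjusted p = 0.124 and 0.172) and without overexpression replicates 2 and 3 (adjusted p = 0.0826 and 0.0545). These genes are close in sequence, and how reads that match more than 1 gene were counted is not stated, so their separate values are uncertain, as are those of IFITM1. The ratio of IFITM1 to IFITM2 was 0.0979, 0.0872 and 0.0886 in control and 0.0612, 0.0532 and 0.0535 with overexpression (exact permutation test, two-sided p = 0.1), again a pair chosen after the values were seen.

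BST2, the tetherin that holds budding virions at the cell surface, was at 479, 475 and 451 CPM in control and 439, 356 and 373 CPM with overexpression. The groups were separated by a narrow gap, and the log2 fold change of -0.27 (SE 0.0779, adjusted p = 0.0375) was -0.088 (adjusted p = 0.137) with the trend removed. Its call was lost without control replicates 1 and 2 (adjusted p = 0.135 and 0.141) and without overexpression replicates 2 and 3 (adjusted p = 0.0703 and 0.132).

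MX1, a dynamin-like GTPase that traps viral nucleocapsids, was at 15.4, 17.2 and 12.5 CPM in control and 11.9, 9.07 and 12.3 CPM with overexpression. Control replicate 3 and overexpression replicate 3 lay side by side. The log2 fold change of -0.44 (SE 0.143, adjusted p = 0.0528) missed the threshold, and it passed with the trend removed (-0.39, adjusted p = 0.0484), with DESeq2 (adjusted p = 0.0277), and without control replicate 3 (adjusted p = 0.0266) or overexpression replicate 1 (adjusted p = 0.0248). MX2 had a log2 fold change of -0.27 (adjusted p = 0.0872). RSAD2, which encodes the radical enzyme viperin, had -0.11 (adjusted p = 0.257) and was called lower with the trend removed (-0.27, adjusted p = 0.00571). Its genomic neighbour CMPK2, a nucleotide kinase, stayed uncalled (0.0054 and 0.042).

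SAMD9 and SAMD9L, neighbouring genes on chromosome 7 that restrict poxviruses, had uneven libraries. SAMD9, singled out after its values were seen, had 43, 87 and 106 counts in control and 71, 307 and 115 counts with overexpression. Its log2 fold change of 1.06 (SE 0.503) was not called. It was carried by overexpression replicate 2, since the value without that library was 0.17, while without overexpression replicate 1 it was called higher (adjusted p = 0.0137). SAMD9L had 97 counts in the same library, against 37 to 63 in the other 5, and a log2 fold change of 0.24 (SE 0.294).

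Of the other induced genes, IFI6 alone fell. IFI6 (ENSG00000126709, chr1:27666064-27672212), a small membrane protein with antiviral and survival functions, was at 81.0, 73.9 and 72.0 CPM in control and 61.1, 45.4 and 50.9 CPM with overexpression. The groups were well apart. IFI6 fell by 0.53 on the log2 scale (SE 0.0991, adjusted p = 0.00779), and by 0.37 with the trend removed (adjusted p = 0.00147), while without control replicate 2 the uncorrected adjusted p was 0.0537. IFI27, a related gene that many tissues induce strongly, had 11, 14 and 13 counts in control and 7, 4 and 11 counts with overexpression. Its log2 fold change of -0.80 (SE 0.366, adjusted p = 0.133) was not called at this depth. IFI35 had a log2 fold change of -0.28 (adjusted p = 0.0736), and IFI44, IFI44L and XAF1 lay between -0.18 and -0.0073. PARP9 (0.15) and PARP14 (0.30), ADP-ribosyltransferases of the response, had positive values. None of these 6 was called in either fit, though without overexpression replicate 1 IFI35 was called lower (-0.41, adjusted p = 0.00317) and PARP14 higher (0.40, adjusted p = 0.00728).

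By role, the first fit called lower 1 of 4 tested sensors, 0 of 6 receptor chains and kinases, 3 of 5 transcription factors, 1 of 4 genes of ISG15 conjugation, 4 of 11 effectors on RNA, 4 of 10 effectors on the virus life cycle and 1 of 8 others, where 11.4% of all genes were called lower. With the trend removed these counts were 1, 1, 1, 2, 7, 4 and 1, where all genes gave 9.35%. The median log2 fold changes of the roles ran from -0.29 for the transcription factors to -0.086 for the receptor chains and kinases in the first fit. Whether the roles differ from each other was not tested. With the trend removed, the median was -0.25 for the other induced genes and -0.17 for the transcription factors.

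The response element letters stood in genes of both kinds. Of the genes with a promoter sequence, the letters stood in 7 of 9 genes called lower (77.8%) and in 15 of 26 not called (57.7%). With the trend removed the counts were 11 of 14 and 11 of 21. OAS1, second to IFITM1 in decrease among the genes that passed the test in the first fit, had no such match in its window, and neither did JAK1. Only the spacing in GAAANNGAAA was searched, so a response element spaced otherwise would be missed. OAS1 had 1 match to TTCNNNGAA, the letters of the gamma-activated site, on either strand at 160 to 168 bases before the start site. That second motif stood in 10 of the 37 genes (27%) and in 9.38% of all 27305 genes. Promoter sequences of DHX58, CGAS, STING1, IFNAR2, IRF3, IRF7, USP18, IFIT2, OAS2, OASL, IFITM2 and MX2 were not used here.

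The ligands that start the response were measured with the rest of the pathway, as 72 further genes listed by function. Earlier results of these data were known when these genes were listed, and 61 of them were tested. IFNA1, IFNA2, IFNK, IFNW1 and IFNG had 0 counts in every library, and IFNE had 1 to 6 counts. IFNB1, a type I interferon, was detected at 1.6, 1.69 and 1.51 CPM in control and 2.06, 2.00 and 1.54 CPM with overexpression, which overlapped (log2 fold change 0.22, adjusted p = 0.383). IFNL1 (ENSG00000182393, chr19:39296407-39298673), a type III interferon, was at 12.3, 10.8 and 11.9 CPM in control and 8.29, 6.72 and 8.00 CPM with overexpression. IFNL1 fell by 0.60 on the log2 scale (SE 0.108, adjusted p = 0.00663), by 0.42 with the trend removed (adjusted p = 0.0109), and in each fit that left out a library. IFNL2 and IFNL3, close copies whose separate values are therefore uncertain, had log2 fold changes of -0.53 each without overlap (adjusted p = 0.0843 and 0.0512), and IFNL3 was called lower without control replicate 3 (adjusted p = 0.0365) or overexpression replicate 1 (adjusted p = 0.0207). The ratio of IFNL1 to IFNB1 was 7.67, 6.42 and 7.84 in control and 4.02, 3.36 and 5.21 with overexpression (exact permutation test, two-sided p = 0.1), a pair chosen after the values were seen. The GC content was 57.5% for IFNL1 and 41.7% for IFNB1. With the trend removed, the log2 fold change was -0.42 for IFNL1 and 0.12 for IFNB1.

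In the 61 tested further genes, 15 fell, 2 rose and 44 were not called (24.6% lower and 3.28% higher, against 11.4% and 9.36% of all genes), with a median log2 fold change of -0.11. LGALS3BP, an interferon-induced secreted glycoprotein, was at 13.9, 12.2 and 11.0 CPM in control and 7.64, 7.69 and 7.41 CPM with overexpression, and fell by 0.70 on the log2 scale (SE 0.108, adjusted p = 0.00317). PTPN6, a phosphatase that dampens cytokine receptor signalling, was at 5.09, 4.69 and 5.07 CPM in control and 2.75, 3.07 and 3.51 CPM with overexpression, and fell by 0.67 (SE 0.131, adjusted p = 0.00913). Both were called lower with the trend removed, by 0.49 each, and with any single library left out. LY6E, a membrane protein that restricts coronavirus entry, was at 676, 743 and 627 CPM in control and 581, 465 and 476 CPM with overexpression, and fell by 0.43 (SE 0.0934, adjusted p = 0.014), or 0.17 with the trend removed. With control replicate 1, control replicate 2 or overexpression replicate 3 left out, the LY6E adjusted p was 0.0546, 0.0858 and 0.0666. IKBKE, a kinase that activates IRF3 and IRF7, was at 12.6, 11.5 and 10.3 CPM in control and 8.54, 7.96 and 9.19 CPM with overexpression, a log2 fold change of -0.42 (adjusted p = 0.0244). The same libraries ended the IKBKE call when left out (adjusted p = 0.114, 0.103 and 0.0617), as did the removal of the trend (-0.26, adjusted p = 0.0653).

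DDX60L, a helicase gene, was at 9.61, 9.86 and 10.5 CPM in control and 10.9, 16.2 and 13.7 CPM with overexpression. Its log2 fold change of 0.45 (SE 0.134, adjusted p = 0.0401) was 0.18 (adjusted p = 0.137) with the trend removed. The DDX60L call held in 1 of the 6 fits that left out a library, the one without overexpression replicate 1. Its adjusted p was 0.133, 0.149 and 0.0597 without control replicates 1, 2 and 3, and 0.0847 and 0.118 without overexpression replicates 2 and 3. With the trend removed, edgeR called 14 of the 61 genes lower and 0 higher, against 9.35% and 9.26% of all genes. Counts at an unadjusted p under 0.05 in that fit were 25 of the 61, both directions together, and 4999 of all 15130 genes. With DESeq2, uncorrected, 2 of the 61 were higher. Of the genes called in the first fit, the other 10 that fell were SOCS3, TICAM1, PML, PARP10, PARP12, HELZ2, SHFL, MOV10, UBA7 and UBE2L6, with log2 fold changes of -0.42 (UBA7, which activates ISG15) to -0.25 (HELZ2, a coactivator), and TRIM5 rose (0.36). Each of these 11 lost its call with at least 1 library left out. Removing the trend ended the call of TICAM1 (-0.11, adjusted p = 0.23), PARP10 (-0.13, adjusted p = 0.0663), HELZ2 (-0.061, adjusted p = 0.355), SHFL (-0.15, adjusted p = 0.112) and TRIM5 (0.22, adjusted p = 0.0534), and GBP2, PLSCR1 and ZC3HAV1 were among the genes called lower in that fit alone.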

How the data were processed

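The deposited values are counts of reads per gene, without normalization, for 60664 Ensembl genes in 6 libraries. According to the supplementary methods, the authors selected poly-A RNA, built dUTP strand-specific libraries, sequenced paired ends, aligned reads to GRCh38 with STAR and counted them with HTSeq. The submitters' processing notes list HISAT2 instead. The strand setting, the treatment of reads with several matches and tool versions are not given in the sources used here. The growth protocol names uterine smooth muscle, while source name, cell line label and paper give SiHa cells, which were used. Libraries were grouped by sample title.

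The analysis used edgeR 4.0.16 under R 4.3.3, with filterByExpr (minimum count 10), TMM normalization and the two-sided quasi-likelihood test of 3 overexpression against 3 control libraries, with Benjamini-Hochberg adjustment over 15130 genes and a threshold of 0.05. Standard errors are the absolute log2 fold change reported by the test divided by the root of F. CPM values use TMM library sizes (a floor of 3 counts is 0.118 to 0.141 CPM). Positions, GC content and length come from GENCODE annotation of GRCh38, later than the authors', which held 60463 of the identifiers. The common biological coefficient of variation was 7.66%. The floor covers counting error only, whereas the standard errors include the spread between the libraries of a group.

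The GC and length correction fitted each library's deviation from the mean with mgcv 1.9.3 by smooth functions of GC content and log2 length, entered as an offset. Alternatives were DESeq2 1.42.0, limma-voom (limma 3.58.1), RLE factors, library sizes only, every gene with a count, a floor of 10 counts in all libraries, a replicate block, single libraries left out and an adjusted p under 0.01. The correction with single libraries left out was chosen after seeing the data. On simulated data with 200 of 15130 genes changed, the test recovered 89% of 2-fold and 50% of 1.41-fold changes, 18 of 157 calls were false, and 0 calls were made with no change. The share of false calls was larger than the threshold of 0.05. In the data 3147 genes were called, so the simulated rates need not hold for them.

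The interferon genes, their roles and the further lists were chosen with earlier results of these data known. Values in every library are given for 18 listed genes, for other interferon genes with an adjusted p under 0.05, and for the 6 further genes with the largest fold change among those called with a mean of at least 1 CPM.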

Additional observations from a re-analysis of the deposited data

How the results depend on the processing

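Normalization by RLE factors or by library sizes only, limma-voom and a floor of 10 counts in all libraries gave the same 14 lower and 1 higher interferon genes. The number called higher moved to 2 with DESeq2, 5 with no filter on low counts and 0 at an adjusted p under 0.01, where 6 were lower. Over all genes, both directions together, DESeq2 called 3068 and the fit with no filter 4485. Of the further pathway genes, 4 were higher with no filter and 0 with the GC and length correction, and at 0.01 the counts were 0 higher and 4 lower, with 728 genes in all. The replicate numbers did not pair the samples (correlations of same-numbered libraries 0.25, -0.049 and 0.030, with 3 of 6 libraries closest to their own number). A fit with the replicate block called 5 interferon genes higher and 16 lower and 4 further genes higher, where all genes gave 14.1% higher and 14.4% lower. Of the interferon genes not called in the first fit, the block fit called EIF2AK2, SAMD9, IFIT5 and PARP14 higher and MX1 and IFI35 lower. Block and correction together gave 2 interferon genes and 1 further gene higher, with 3515 genes called in all.

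Leaving out single libraries gave 534 to 5530 calls over all genes, 0 to 6 higher and 4 to 19 lower interferon genes, and 0 to 6 higher and 3 to 18 lower further genes. The counts over all genes were 781, 534, 3185, 5530, 2206 and 904 without control replicates 1 to 3 and overexpression replicates 1 to 3. With the correction, leaving out single libraries gave 1457 to 3722 calls, 0 to 2 higher and 11 to 18 lower interferon genes, and 0 to 1 higher and 4 to 13 lower further genes.

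Among single genes, IFIT1 changed sign around 0 (0.013 with library sizes only, 0.0066 with no filter, -0.042 to 0.023 with single libraries left out, and -0.20 to -0.11 with the correction and single libraries left out). CGAS turned to -0.010 with the correction, alone or with the block, and spanned 0.050 to 0.15 with libraries left out and -0.037 to 0.029 when these fits were corrected. IFNAR1 turned to -0.095 in both corrected fits and spanned 0.019 to 0.15, or -0.11 to -0.070 corrected. IFIH1 spanned 0.088 to 0.25, or -0.017 to 0.10 corrected. Of these 4 genes, IFIT1 alone changed sign when a library was left out without the correction. None of these sign changes passed the threshold on both sides, and the cause was not tested. IFI27 had 4 to 14 counts per library, which limits its precision, and the counts of RIGI and IRF9 are not read as levels.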

Other observations

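The relay between the sensors and the interferon regulatory factors was measured as well, in genes singled out here after their values were seen. MAVS, the mitochondrial adaptor of the RNA helicases, was at 152 ± 2.47 CPM (SD, n = 3) in control and 154 ± 5.16 CPM with P4HA3 overexpression, a log2 fold change of 0.014 (SE 0.0522) that was not called. TBK1, the kinase that activates IRF3, was at 14.3 ± 2.06 and 18.5 ± 6.18 CPM, with overlapping libraries. Its log2 fold change of 0.37 (SE 0.205, edgeR adjusted p = 0.209) was not called, nor was 0.12 with the GC and length trend removed (adjusted p = 0.613). With single libraries left out it ran from 0.086 to 0.57. TBK1 was called higher without overexpression replicate 1 (log2 fold change 0.57, adjusted p = 0.0113) and with a replicate block (0.33, adjusted p = 0.0377). TICAM1, the adaptor of the endosomal RNA receptor TLR3, fell by 0.34 on the log2 scale (edgeR adjusted p = 0.0155) and was not called with the GC and length trend removed (-0.11, adjusted p = 0.23). TLR3 itself stood at 1.45 ± 0.368 and 1.43 ± 0.248 CPM. The receptor chain that serves type III interferon alone, IFNLR1, was at 12.1 ± 0.644 and 10.2 ± 0.557 CPM, a log2 fold change of -0.25 (adjusted p = 0.0795) without overlap between the groups.

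The guanylate-binding proteins, which are induced mainly by interferon gamma, had fold changes of both signs. GBP1 had a log2 fold change of 0.047 (SE 0.0808) and GBP3 of 0.20 (SE 0.0956), neither called. GBP2 was at 5.89 ± 0.363 CPM in control and 4.70 ± 0.409 CPM with overexpression, a log2 fold change of -0.32 (adjusted p = 0.0709) that was called with the trend removed (-0.48, adjusted p = 0.0224).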
